A study of Mus musculus with 20 samples.

Results

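Iron and heme handling was examined through 10 genes chosen for their roles in uptake (Trf, Tfrc, Slc11a1), storage (Fth1, Ftl1), export (Slc40a1, Cp) and the capture and breakdown of heme (Hp, Hmox1, Blvrb). All 10 were among the 14776 genes of the deposited table, and all 10 were tested in each comparison. The tissue was eWAT, the white fat depot beside the epididymis, of 20 male mice of the C57BL/6J strain that started their diets at 6 weeks of age. The 6 NC mice ate maintenance feed. The study describes sequenced groups of equal size, whereas the NC group analysed here is 1 mouse smaller than the others. The 7 HFD mice ate a diet with 60% of its energy as fat for 14 weeks and then, still on that diet, received saline into the stomach for 6 weeks. The 7 SZ-A mice ate the high-fat diet over the same time and received Ramulus Mori (Sangzhi) alkaloids from mulberry twig at 400 mg/kg per day in place of saline. No mouse received the alkaloids on maintenance feed, so the alkaloids were measured only on top of the high-fat diet. Levels are FPKM, fragments scaled to library size and to the length of all annotated exons of a gene together. A transcript can be shorter than that length, so levels of different genes can be compared only roughly.

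Iron reaches tissues bound to transferrin (Trf), which is taken up through the transferrin receptor (Tfrc), and it is stored inside cages of ferritin heavy and light chains (Fth1, Ftl1). Ferroportin (Slc40a1) is the known iron exporter of mammalian cells, and ceruloplasmin (Cp) oxidises the exported iron so that transferrin can bind it. Macrophages obtain much of their iron from old red blood cells: haptoglobin (Hp) captures free hemoglobin, heme oxygenase 1 (Hmox1) opens the heme ring and frees iron, and biliverdin reductase B (Blvrb) acts on products of heme breakdown. Nramp1 (Slc11a1) moves metal ions across the phagosome membrane of macrophages. Adipose tissue of obese animals is known to gain macrophages, some of which handle iron.

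Ferritin and transferrin receptor mRNAs carry short hairpins, iron-responsive elements, that regulatory proteins bind when iron is scarce, which blocks translation of ferritin and stabilises the receptor mRNA. They are shown because part of the control of these 3 genes acts on translation or on mRNA stability, and mRNA levels alone were measured here. A bulged C, 5 stem bases, a loop CAGTGN and 5 further stem bases that pair with the first 5 were searched for in GENCODE release M21 transcripts (GRCm38). The search ran on the coding strand only. Of 13053 genes searched, 16 (0.123%) held a match in the 5′ UTR and 92 (0.705%) in the 3′ UTR. Fth1 and Ftl1 held 1 match each in exon 1 within the 5′ UTR, and Tfrc held 4 matches in exon 19 within the 3′ UTR. Capitals mark the bulged C and the loop.
Fth1, chr19:9982733-9982759, plus strand: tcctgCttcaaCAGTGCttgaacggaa
Ftl1, chr7:45459780-45459806, minus strand: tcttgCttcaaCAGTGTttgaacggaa
Tfrc, chr16:32631220-32631246, plus strand: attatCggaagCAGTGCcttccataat
Tfrc, chr16:32631599-32631625, plus strand: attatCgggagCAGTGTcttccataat
Tfrc, chr16:32631664-32631690, plus strand: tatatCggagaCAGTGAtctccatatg
Tfrc, chr16:32631711-32631737, plus strand: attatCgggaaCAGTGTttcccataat
The ferritin hairpins of the heavy and the light chain share their loop apart from its last base, and the 4 receptor hairpins differ mainly in the stem and in that same loop base.

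Between 13567667 and 19388628 reads per mouse were recovered on the deposited genes, and the lowest read number of any of the 10 genes in any mouse was 37, for Slc11a1. All 12 adipocyte markers on a list were in the table. In NC 6, however, their summed level was 616 FPKM, against 11572 to 27660 in the other 5 NC mice, and Adgrg2, a marker of epididymis, stood at 420 FPKM against 5.69 to 30.0 in those mice. Adgrg2 was the only 1 of 15 listed epididymis markers in the table, so the presence of epididymis rests on a single gene and was not tested. SZ-A 2 also stood apart in Adgrg2, at 103 FPKM against 1.80 to 10.3 in the other SZ-A mice. SZ-A 5 had the largest share of reads on mitochondrial genes, 11.6%, and the highest globin levels. For the 10 genes and the globins, calls that changed when any of these 3 mice was left out are given with and without that mouse. Fold changes of other genes are given with all mice only, so their dependence on these 3 mice is not shown. Correlations given without mice leave out NC 6 and SZ-A 5 together and keep SZ-A 2.

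After the high-fat diet, Slc11a1, Hmox1, Ftl1, Blvrb and Fth1 rose and Cp fell against NC. SZ-A mice had lower Hmox1, Slc11a1 and Blvrb than HFD mice, while the 4 globin genes measured were higher. Against NC, Slc11a1 and Hmox1 were still higher in SZ-A mice. Calls were made with limma on log2(FPKM + 1) at an adjusted p under 0.05 over all genes tested. For HFD against NC, 6 of the 10 genes were called, 5 higher and 1 lower, where 41.1% of all genes tested were called, 21.0% higher and 20.1% lower. The values of the same 6 genes did not overlap between HFD and NC mice, against 20.5% of all genes. For SZ-A against HFD, 3 of 10 were called, all 3 lower, where 22.8% of all genes were called and 13.3% were called lower. None of the 10 was free of overlap between SZ-A and HFD mice (6.08% of all genes). For SZ-A against NC, 2 of 10 were called, both higher, where 4.61% of all genes were called and 4.15% were called higher. Of the 10, 3 did not overlap between SZ-A and NC mice (3.57% of all genes). A further limit of 1.5 on the absolute log2 fold change left 3 genes for HFD against NC, where it left 7.97% of all genes. It left 0 genes for SZ-A against HFD, where it left 0.864%, and 2 for SZ-A against NC, where it left 1.79%. The median log2 fold change over the 10 genes was 1.26, -0.46 and 0.64 in the order above, and that over all genes tested was -0.04, 0.03 and 0.00. HFD mice enter both of the first comparisons, so a high or low HFD value moves both at once.

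**Figure D1:**
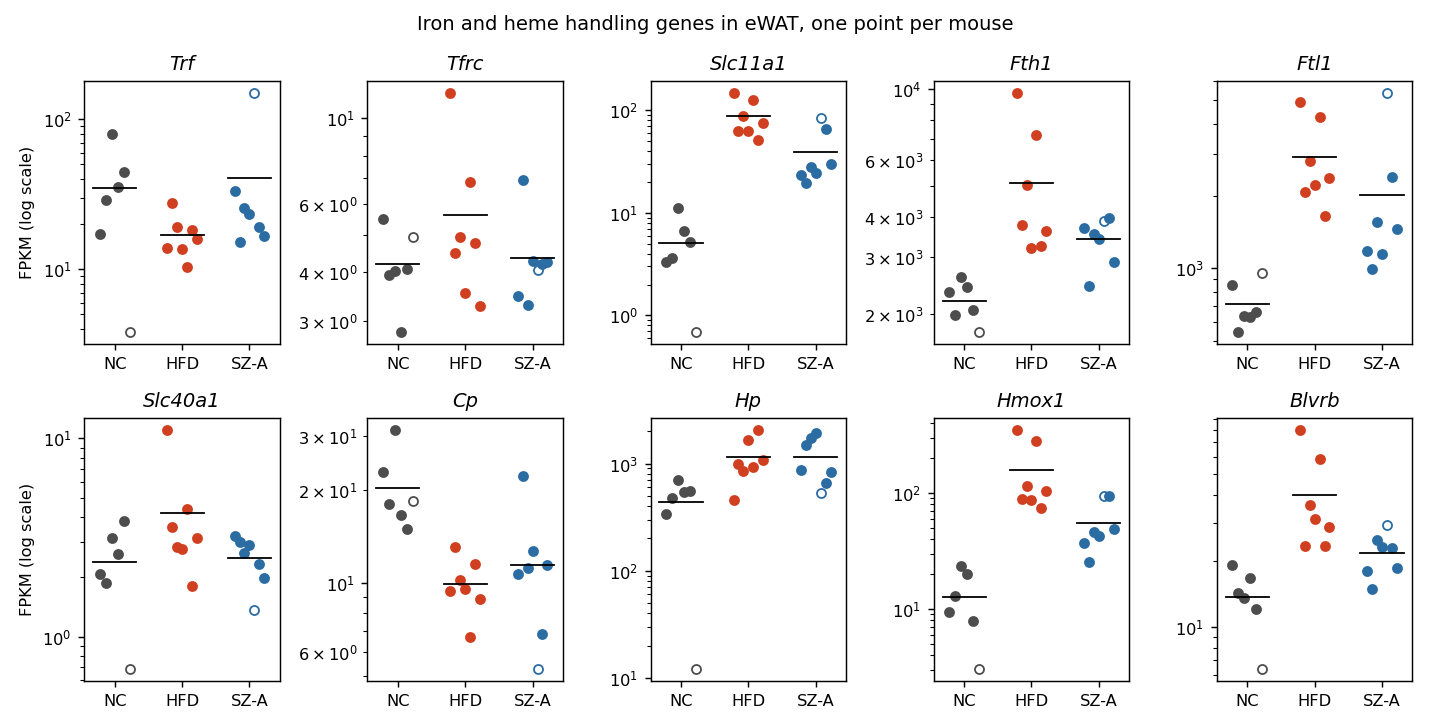
FPKM of the 10 iron and heme genes on a logarithmic axis, with each mouse as a point and the group mean as a line, for 6 NC, 7 HFD and 7 SZ-A mice. Open points are NC 6 and SZ-A 5. Hmox1 lay between 3.06 and 23.5 FPKM in NC mice, 74.3 and 351 in HFD mice and 25.6 and 94.3 in SZ-A mice, and Cp was lower in every HFD mouse than in every NC mouse.

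Ordered by mean level per exon length, Fth1 came first in all 3 groups, followed by Ftl1 and Hp, and Tfrc and Slc40a1 came last. In NC mice, only Fth1 and Ftl1 were neighbours in that order whose values did not overlap. Hp and Trf overlapped there through NC 6 alone (12.1 FPKM of Hp). The other NC mice had 338 to 696 FPKM of Hp, and Trf was at most 79.7 FPKM. Hmox1 followed Blvrb in NC mice (12.8 FPKM) but came directly after Hp in HFD mice (157 FPKM), where its values all lay below those of Hp. In SZ-A mice Hmox1 kept that place, with values that overlapped those of Trf, and Tfrc and Slc40a1 did not overlap.

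Of the 2 heme breakdown genes among the 10, Hmox1 (ENSMUSG00000005413, chromosome 8 of GRCm38, 75093621 to 75100589) had the larger log2 fold changes. Its lowest, median and highest levels were 3.06, 11.2 and 23.5 FPKM in NC, 74.3, 105 and 351 FPKM in HFD, and 25.6, 45.9 and 94.3 FPKM in SZ-A mice. Every HFD and every SZ-A mouse was above every NC mouse, whereas SZ-A 5 (94.1 FPKM) and SZ-A 6 (94.3 FPKM) lay among the HFD mice. HFD 1 (351 FPKM) and HFD 5 (280 FPKM) stood above the other HFD mice, none of which passed 114 FPKM. The mean rose from 12.8 ± 7.73 (SD, n = 6) in NC to 157 ± 111 (SD, n = 7) in HFD, 12.2 times as high, with a log2 fold change of 3.49 (± 0.46 SE, limma adjusted p = 5.7e-05). In SZ-A mice it was 55.6 ± 27.4 (SD, n = 7), a log2 fold change of -1.36 against HFD (± 0.38 SE, limma adjusted p = 0.019). Against NC it remained 2.12 higher on the log2 scale (± 0.41 SE, limma adjusted p = 0.0095). Each left-out mouse kept these 3 calls, with adjusted p of at most 0.044. With the replicate number as a block, the call against NC was lost (limma adjusted p = 0.089).

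Blvrb (ENSMUSG00000040466, chromosome 7, 27447978 to 27466144), which reduces biliverdin and flavins, had values of 6.39, 13.9 and 19.1 FPKM (lowest, median and highest) across NC, 23.4, 31.1 and 80.0 FPKM across HFD and 14.9, 23.03 and 29.2 FPKM across SZ-A mice. HFD and NC mice did not overlap, and the same HFD 1 and HFD 5 were highest. The rise with the diet was 1.41 on the log2 scale (± 0.31 SE, limma adjusted p = 0.0025). The fall in SZ-A against HFD mice, -0.75 (± 0.25 SE, limma adjusted p = 0.045), was close to the threshold. It was lost when any of HFD 1, 3, 4 or 5 or SZ-A 1, 2, 3, 4, 6 or 7 was left out, with adjusted p up to 0.099, and kept without HFD 2, 6 or 7 or SZ-A 5. Against NC the difference of SZ-A mice was 0.66 (± 0.22 SE, limma adjusted p = 0.12).

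Hp (ENSMUSG00000031722, chromosome 8, 109575128 to 109579172) encodes haptoglobin, an acute-phase protein that adipocytes also make. NC mice other than NC 6 had 338 to 696 FPKM of Hp and NC 6 had 12.1 FPKM. HFD mice ranged from 459 to 2069.6 FPKM and SZ-A mice from 530 to 1942 FPKM, so the ranges of these 2 groups overlapped. HFD against NC gave 1.91 on the log2 scale (± 0.79 SE, limma adjusted p = 0.068). Without NC 6 it was 1.03 (limma adjusted p = 0.023), past the threshold at a smaller size, and it also passed without NC 3. SZ-A and HFD mice had nearly equal means of Hp, 1150.0 and 1147 FPKM, a log2 fold change of -0.01 with an interval of 2 SE from -0.74 to 0.73. Hp was therefore not measurably lower in SZ-A mice. NC 6 was also low in adipocyte markers, and its part in the Hp difference is shown by the value without it.

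Both ferritin chains rose with the diet. Fth1 (ENSMUSG00000024661, chromosome 19, 9980598 to 9985098) has the ferroxidase activity of the ferritin cage, and its values were 1754, 2197 and 2604 FPKM (lowest, median and highest) across NC, 3197, 3768 and 9711 FPKM across HFD and 2447, 3554 and 3976 FPKM across SZ-A mice. All 7 HFD mice were above all 6 NC mice, and the spread among HFD mice came largely from HFD 1 (9711 FPKM) and HFD 5 (7187 FPKM). The log2 fold change was 1.11 (± 0.37 SE, limma adjusted p = 0.027) for HFD against NC. It missed the threshold when NC 2, HFD 3 or HFD 5 was left out, with adjusted p of at most 0.057. In SZ-A against HFD mice it came to -0.48 (± 0.32 SE, limma adjusted p = 0.28), with an interval of 2 SE from -1.11 to 0.16.

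Ftl1 (ENSMUSG00000050708, chromosome 7, 45457944 to 45459884), the light chain on whose surface the iron core forms, showed a larger rise. Its values were 543, 644 and 958 FPKM (lowest, median and highest) across NC, 1649, 2367 and 4912 FPKM across HFD and 999, 1457 and 5363 FPKM across SZ-A mice. NC mice lay below every mouse of the other 2 groups, and SZ-A 5 (5363 FPKM) exceeded all HFD mice while the other SZ-A mice had at most 2405 FPKM. The log2 fold change was 1.95 (± 0.31 SE, limma adjusted p = 2.6e-04) for HFD against NC and -0.68 (± 0.39 SE, limma adjusted p = 0.21) for SZ-A against HFD. Without SZ-A 5 the difference from HFD was -0.95 (limma adjusted p = 0.031), so that 1 mouse decided the call. Against NC, SZ-A mice had a log2 fold change of 1.28 (± 0.40 SE, limma adjusted p = 0.089), without overlap. That difference passed the threshold in 3 of 9 alternatives, with a lowest limma adjusted p of 0.032. These were quantile normalization, all 3 groups in the fit, and leaving out NC 6 and SZ-A 5 together. Reads of Ftl1 could be shared with its close copy Ftl1-ps1, which stood at 6.03 to 96.4 FPKM and was highest in SZ-A 5.

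The ratio of Fth1 to Ftl1 FPKM was examined after the values had been seen and is therefore given without a test. It was 3.23 ± 0.850 (SD, n = 6) for NC, 1.74 ± 0.204 (SD, n = 7) for HFD and 2.17 ± 0.822 (SD, n = 7) for SZ-A mice. Its size depends on the annotated exon lengths, 3469 bases for Fth1 and 1340 for Ftl1, so it is not a ratio of mRNA molecules. NC mice other than NC 6 (1.83) ranged from 2.74 to 4.13, above every HFD mouse (1.44 to 1.98). Among SZ-A mice the ratio ran from 0.723 in SZ-A 5 to 3.12 in SZ-A 1, and it was above the HFD range in 5 of the 7. Ferritin cages are built from both chains in proportions that differ between tissues.

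**Figure D2:**
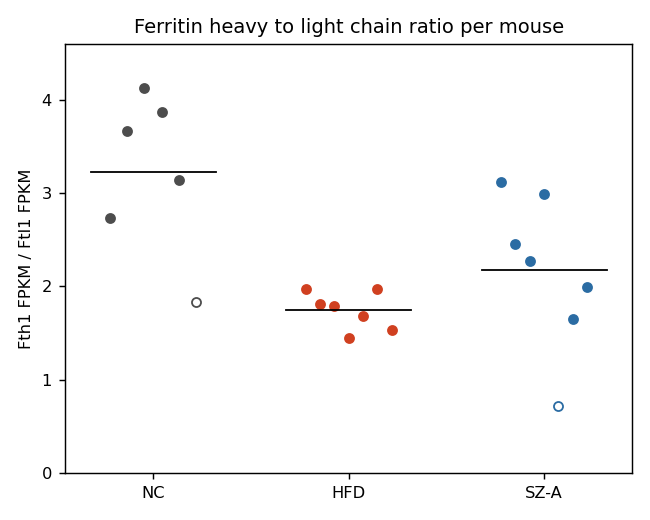
Ratio of Fth1 to Ftl1 FPKM on a linear axis from 0, with each mouse as a point and the group mean as a line (n = 6, 7 and 7). Open points are NC 6 (1.83) and SZ-A 5 (0.723). HFD mice were gathered between 1.44 and 1.98, and the other groups were wider.

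Among the uptake genes, Slc11a1 (ENSMUSG00000026177, chromosome 1, 74375195 to 74386062) changed most of all 10 genes with the diet. Its values were 0.685, 4.42 and 11.2 FPKM (lowest, median and highest) across NC, 51.1, 75.3 and 148 FPKM across HFD and 19.6, 28.3 and 83.6 FPKM across SZ-A mice. NC mice did not overlap with either other group. SZ-A 5 (83.6 FPKM) and SZ-A 6 (66.2 FPKM) reached into the HFD range, and the other 5 SZ-A mice, at 30.0 FPKM or less, were below it. The mean was 17.1 times as high in HFD as in NC mice, with a log2 fold change of 4.0 (± 0.39 SE, limma adjusted p = 3.6e-06). It was -1.24 (± 0.33 SE, limma adjusted p = 0.015) for SZ-A against HFD and 2.76 (± 0.44 SE, limma adjusted p = 0.0028) for SZ-A against NC.

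Tfrc (ENSMUSG00000022797, chromosome 16, 32608920 to 32632794) was low in all groups, at 4.21 ± 0.921 FPKM (SD, n = 6) for NC, 5.64 ± 2.88 FPKM (SD, n = 7) for HFD and 4.36 ± 1.204 FPKM (SD, n = 7) for SZ-A mice. The 3 groups overlapped, although HFD 1 reached 11.6 FPKM and SZ-A 2 reached 6.94 FPKM. Without SZ-A 2 the log2 fold change for SZ-A against HFD was -0.34 (limma adjusted p = 0.23). No comparison passed the threshold, and the interval of 2 SE ran from -0.18 to 0.73 on the log2 scale for HFD against NC and from -0.67 to 0.18 for SZ-A against HFD. The receptor mRNA thus showed no measurable difference between the groups in which the ferritin mRNAs differed. Mouse by mouse, with each group centred on its own mean of log2(FPKM + 1), Pearson's r of Tfrc was 0.51 with Fth1 and 0.33 with Ftl1 over 20 mice. Without NC 6 and SZ-A 5 it was 0.57 and 0.48, and HFD 1 was highest of all mice in both Tfrc and Fth1.

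Trf (ENSMUSG00000032554, chromosome 9, 103204001 to 103230444), the plasma iron carrier that the liver makes in bulk, was not called in any comparison that kept all mice. NC mice had 3.80 (NC 6) to 79.7 FPKM with a median of 32.1, HFD mice 10.3 to 27.6 FPKM with a median of 15.96, and SZ-A mice 15.2 to 33.3 FPKM apart from SZ-A 5, which had 150 FPKM. HFD against NC gave -0.62 on the log2 scale (± 0.50 SE, limma adjusted p = 0.35), and without NC 6 it was -1.11 (limma adjusted p = 0.011). In SZ-A against HFD mice it came to 0.77 (± 0.40 SE, limma adjusted p = 0.17), and without SZ-A 5 it was 0.38 (limma adjusted p = 0.19). Exons of Trf overlap those of an annotated fusion transcript, Gm20425, which is not analysed here.

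Of the export genes, Slc40a1 (ENSMUSG00000025993, chromosome 1, 45908068 to 45926523) stood at 2.37 ± 1.09 FPKM (SD, n = 6) for NC, 4.23 ± 3.12 FPKM (SD, n = 7) for HFD and 2.49 ± 0.651 FPKM (SD, n = 7) for SZ-A mice. All 3 groups overlapped, and the HFD mean was raised by HFD 1 at 11.1 FPKM, against 1.80 to 4.42 FPKM in the other HFD mice. The log2 fold change was 0.55 (± 0.31 SE, limma adjusted p = 0.17) for HFD against NC and -0.45 (± 0.25 SE, limma adjusted p = 0.21) for SZ-A against HFD. At these sizes and errors, a difference in ferroportin mRNA was not detectable.

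Cp (ENSMUSG00000003617, chromosome 3, 19957054 to 20009145) was the only gene of the 10 that fell with the diet in the fit of all 13 mice. Its values were 15.0, 18.2 and 31.4 FPKM (lowest, median and highest) across NC, 6.71, 9.59 and 13.1 FPKM across HFD and 5.27, 11.2 and 22.2 FPKM across SZ-A mice. All 7 HFD mice were below all 6 NC mice (two-sided exact permutation p = 5.8e-04, the lowest possible with 7 and 6 mice). The log2 fold change was -0.95 (± 0.18 SE, limma adjusted p = 8.4e-04), the NC mean being 2.05 times the HFD mean. SZ-A mice did not differ measurably from HFD mice, by 0.10 (± 0.23 SE, limma adjusted p = 0.78), or -0.07 without SZ-A 2 (limma adjusted p = 0.82). Against NC they had a log2 fold change of -0.85 (± 0.27 SE, limma adjusted p = 0.095), which passed the threshold without SZ-A 2, the SZ-A mouse with the highest value (limma adjusted p = 0.022). Exons of Cp overlap those of Hps3 on the opposite strand, and whether reads were counted by strand is not given in the sources used here.

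**Figure D3:**
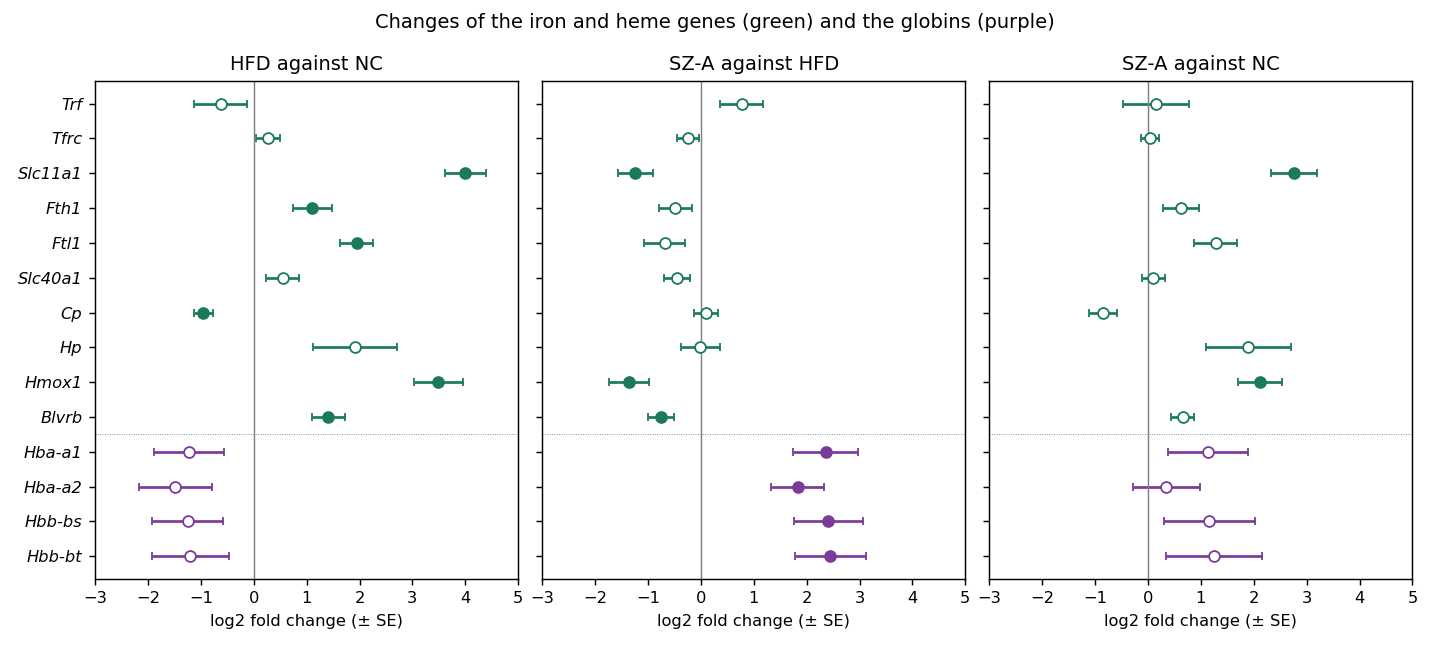
Log2 fold changes on the log2(FPKM + 1) scale with their SE for the 10 iron and heme genes (green) and 4 globin genes (purple) in the 3 comparisons. Filled points have a limma adjusted p under 0.05. For SZ-A against HFD, Hmox1 (-1.36), Slc11a1 (-1.24) and Blvrb (-0.75) were called lower and the globins (1.83 to 2.45) higher.

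Globins are best known as the oxygen carriers of red blood cells, and the cells that held their mRNA in this tissue were not identified. Of 6 adult globin symbols listed, 4 were in the table. The others, Hbb-b1 and Hbb-b2, are not gene names of the annotation used, so their absence does not mean undetected genes. Hbb-bs, a beta globin (ENSMUSG00000052305, chromosome 7, 103826534 to 103828096), had values of 32.6, 407 and 777 FPKM (lowest, median and highest) across NC, 29.6, 124 and 213 FPKM across HFD and 155, 440 and 5627 FPKM across SZ-A mice. SZ-A 2 was the only SZ-A mouse within the HFD range, and SZ-A 5 stood far above the rest. The log2 fold change for SZ-A against HFD was 2.41 (± 0.65 SE, limma adjusted p = 0.017) and 1.88 without SZ-A 5 (limma adjusted p = 0.011). Without SZ-A 2 it was 2.74 (limma adjusted p = 0.0072). The mean in SZ-A mice was 1247 ± 1960 FPKM (SD, n = 7) and 517 ± 366 FPKM (SD, n = 6) without SZ-A 5. Hba-a1, Hba-a2 and Hbb-bt rose by 2.36, 1.83 and 2.45, so that all 4 globins were called higher, where 9.47% of all genes were. Near-identical copies make the split of reads between Hba-a1 and Hba-a2 and between Hbb-bs and Hbb-bt uncertain.

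Against NC, HFD mice had globin log2 fold changes of -1.48 to -1.2, and 0 of the 4 passed with limma or with voom on recovered reads (limma adjusted p of 0.10 to 0.21), while 1, Hba-a2, had an unadjusted p just under 0.05. Without NC 6 all 4 passed, with limma adjusted p of 0.0056 to 0.016, and without HFD 2 only Hba-a2 did. NC 6 had a Hbb-bt level of 0.586 FPKM, from 6 reads. SZ-A and NC mice did not differ measurably in any of the 4, with 0 at an unadjusted p under 0.05 and 0 calls with voom on recovered reads (log2 fold changes of 0.35 to 1.25, limma adjusted p of 0.44 to 0.80). Among 16 genes of red cell precursors, 5 were in the table and 4 were tested. Alas2, the first enzyme of heme synthesis in red cells, fell by 1.05 with the diet (limma adjusted p = 0.036) and was 1.85 higher in SZ-A mice than in HFD mice (limma adjusted p = 0.0045). Bpgm, which makes the regulator of oxygen binding in red cells, fell by 0.87 and was 1.02 higher in SZ-A mice (limma adjusted p of 0.0026 and 0.0012). Among NC mice Bpgm was highest in NC 1 and NC 6 (11.6 and 10.7 FPKM), where the summed globins were lowest (341 and 77.6 FPKM). Among SZ-A mice it was highest in SZ-A 5 (14.6 FPKM), where the globins were highest too. Sptb, of the red cell skeleton, fell by 0.71 with the diet (limma adjusted p = 0.0015) and had 0.26 for SZ-A against HFD (limma adjusted p = 0.18). Its lowest value of all mice was in SZ-A 5 (0.124 FPKM), where the globins peaked. Among HFD mice it was lowest in HFD 1 (0.230 FPKM), where the globins were lowest too. The cells behind the Bpgm and Sptb levels were not identified. Ank1, of the same skeleton, was called in neither (-0.89 and 0.06, limma adjusted p of 0.16 and 0.87).

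Set beside the globins, Hmox1 and Blvrb had their highest means in HFD mice, the group with the lowest mean of each of the 4 globin genes. Mouse by mouse, after each group was centred on its own mean of log2(FPKM + 1), Pearson's r with the summed globin level over 20 mice was 0.27 for Hmox1 and 0.10 for Blvrb. Without NC 6 and SZ-A 5, over 18 mice, it was -0.27 and -0.51. The sign thus rested on these 2 mice. Trf had the highest r with the globins, 0.87 over 20 mice and 0.65 over 18, and Tfrc the lowest, -0.56 and -0.73. Hp had 0.49 and 0.43. The summed adipocyte markers moved with the globins too, with an r of 0.69 over 20 mice and 0.79 over 18. Trf had an r of 0.66 and 0.64 with that adipocyte sum, and Tfrc -0.53 and -0.79. The part of adipocyte content in the globin difference was not tested. These values are descriptions, since all genes of a mouse share its library, depth and tissue piece.

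**Figure D4:**
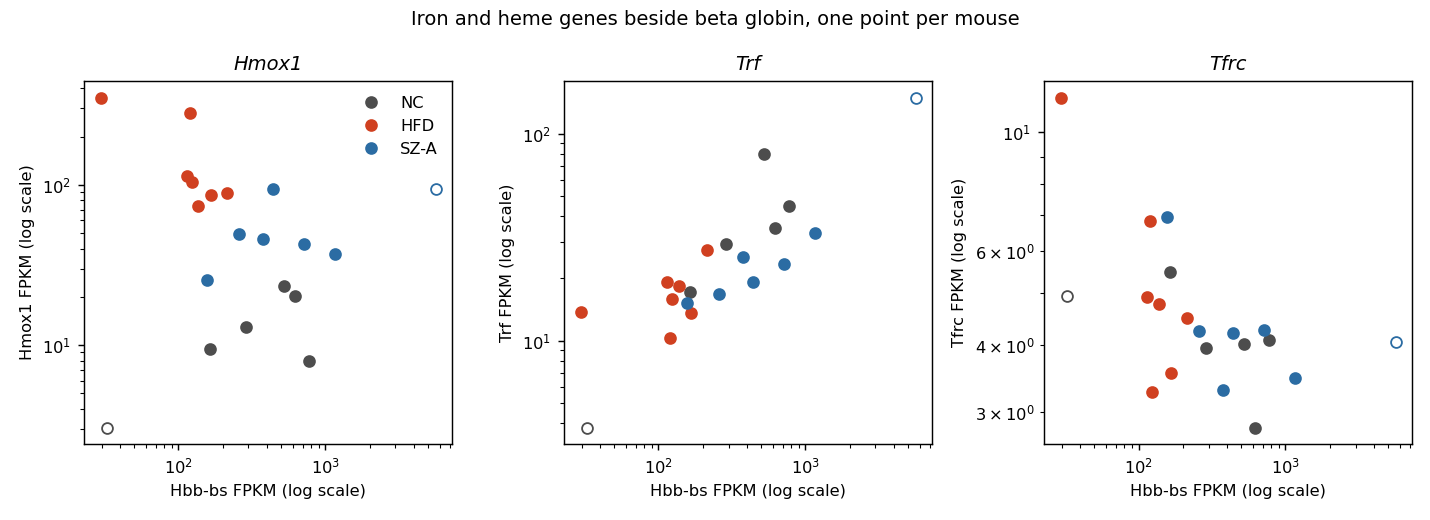
Levels of Hmox1, Trf and Tfrc against Hbb-bs in FPKM, both axes logarithmic, with each mouse as a point (6 NC, 7 HFD, 7 SZ-A, open points NC 6 and SZ-A 5). SZ-A 5 was highest in Hbb-bs (5627 FPKM) and Trf (150 FPKM), and HFD 1 was highest in Hmox1 (351 FPKM) and Tfrc (11.6 FPKM) and lowest in Hbb-bs (29.6 FPKM).

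Most macrophage markers moved with Slc11a1, Hmox1 and Blvrb. Of 16 macrophage markers, 14 rose with the diet and 0 fell (median log2 fold change 3.60), where 21.0% of all genes rose and 20.1% fell. In SZ-A against HFD mice 14 fell and 0 rose (median -1.37), where 13.3% of all genes fell and 9.47% rose. Cd163 (0.30 and -0.40, limma adjusted p of 0.70 and 0.20) and Lyve1 (0.44 and 0.31, limma adjusted p of 0.57 and 0.49) were called in neither. Their summed level ranged from 76.8 to 778 FPKM among NC, 4733 to 13518 among HFD and 1856 to 6751 among SZ-A mice. HFD 1 and HFD 5, highest in Hmox1, Blvrb and both ferritins among HFD mice, were also the highest HFD mice in this sum, and SZ-A 5 and SZ-A 6 were the highest SZ-A mice. Pearson's r with the sum, centred within groups over 20 mice, was 0.97 for Slc11a1, 0.87 for Hmox1, 0.70 for Blvrb, 0.61 for Fth1 and 0.46 for Ftl1. Without NC 6 and SZ-A 5 the values were 0.97, 0.84, 0.54, 0.71 and 0.78. For Cp it was -0.38 and -0.44, and for Tfrc 0.06 and 0.29. In whole tissue, fewer cells of a type and less RNA per cell cannot be told apart, and the part of macrophage number in these changes was not tested. Adipocyte markers summed to 616 to 27660 FPKM among NC, 1841 to 8529 among HFD and 5944 to 19982 among SZ-A mice. Of these 12 markers, 1 rose and 2 fell with the diet (median log2 fold change -0.38). Between SZ-A and HFD mice 2 rose and 0 fell, and all 12 had a positive log2 fold change (median 0.98, against 0.03 over all genes). Of the 12, 10 had an unadjusted p under 0.05. The share of all genes at that unadjusted limit is not given here, so this count has no background beside it. Hp had an r of 0.91 with the adipocyte sum over 20 mice and 0.68 without the 2 mice. None of 7 hepatocyte markers was in the table, and 3 of 10 neutrophil markers were, at sums of 0.617 to 24.0 FPKM.

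Beyond the 10 genes, 65 of 75 further iron and heme genes on 7 lists were tested. With the diet, 12 of the 65 rose and 16 fell, where 21.0% of all genes rose and 20.1% fell. In SZ-A against HFD mice 8 rose and 7 fell, where 9.47% rose and 13.3% fell. Against NC 4 were higher and 1 lower, where 4.15% of all genes were higher and 0.455% lower. The median log2 fold change of the 65 was -0.16, 0.10 and -0.10 in these comparisons. The shares called were thus near those of all genes for HFD against NC and SZ-A against HFD, and for SZ-A against NC the calls were too few to compare.

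The 6 other genes of heme breakdown and its control followed Hmox1 and Blvrb in part. With the diet 4 rose and 0 fell, where 21.0% of all genes rose. In SZ-A against HFD mice the same 4 fell, where 13.3% of all genes fell. Por and Hpx were called in neither comparison (-0.16 and -0.14 with the diet, limma adjusted p of 0.63 and 0.79). Blvra, biliverdin reductase A, rose by 1.93 (± 0.21 SE, limma adjusted p = 1.0e-05), and Bach1, the heme-binding repressor of Hmox1, by 1.17 (± 0.22 SE, limma adjusted p = 9.7e-04). Against HFD, SZ-A mice gave Bach1 a log2 fold change of -0.71 and Nfe2l2, the activator of antioxidant genes that include Hmox1, of -0.63 (limma adjusted p of 0.0012 and 0.0099). Blvra stayed 1.39 higher in SZ-A than in NC mice (limma adjusted p = 0.0037). Hmox2, the constitutive heme oxygenase, was the remaining gene of the 4, with 0.76 and then -0.57 (limma adjusted p of 9.4e-04 and 0.016).

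Among 12 genes of uptake and reduction, 5 rose and 3 fell with the diet, where 21.0% of all genes rose and 20.1% fell. Steap3, the endosomal reductase that frees iron from the transferrin cycle, rose by 3.08 (± 0.31 SE, limma adjusted p = 4.5e-06), from 3.56 to 33.2 FPKM in the mean. Lrp1, a receptor that takes up heme bound to hemopexin among many other ligands, rose by 2.78 (± 0.53 SE, limma adjusted p = 9.7e-04). Both were lower in SZ-A mice than in HFD mice, by -1.17 (limma adjusted p = 3.5e-04) for Steap3 and -1.08 (limma adjusted p = 0.0012) for Lrp1. Steap3 remained 1.91 and Tfr2, the second transferrin receptor, 1.66 above NC in SZ-A mice (limma adjusted p of 0.0040 and 0.017). Tfrc itself was called in none of the 3 comparisons.

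Of 9 genes of heme synthesis, 3 fell, 0 rose and 6 were not called with the diet, where 20.1% of all genes fell. In SZ-A against HFD mice 1 rose and 8 were not called, where 9.47% of all genes rose. Alad, the second enzyme of the pathway, fell by 2.52 (± 0.38 SE, limma adjusted p = 1.5e-04), from 96.9 to 12.5 FPKM in the mean, and was 1.22 higher in SZ-A mice than in HFD mice (limma adjusted p = 0.020). Of 8 markers listed for mesothelium, Krt18, Krt19 and Lrrn4 were in the table, and they did not all move with Alad. Their median log2 fold change with the diet was -3.55, with 2 lower and 0 higher, and their sum ranged from 21.6 to 556 FPKM among NC, 4.29 to 17.3 among HFD and 0.494 to 209 among SZ-A mice. Krt18, a keratin of simple epithelia, fell by 5.23 (± 0.79 SE, limma adjusted p = 1.8e-04). Krt19 fell by 3.55 (limma adjusted p = 6.1e-04), and Lrrn4 was not called (0.29, limma adjusted p = 0.62). For SZ-A against HFD, where Alad was called, 0 of the 3 markers were called. Alad was highest in NC 1 and NC 6 (229 and 137 FPKM) and, among SZ-A mice, in SZ-A 7 and SZ-A 2 (99.6 and 65.5 FPKM), and Krt18 was highest in the same 4 mice of these groups (454, 452, 168 and 119 FPKM). Lrrn4, in contrast, was lowest among NC mice in NC 6 and NC 1 (0.0369 and 1.07 FPKM), and Krt19 was 104 and 27.7 FPKM there, against 262 FPKM in NC 2. The part of epithelial or mesothelial cells in the Alad difference was not tested. Slc25a38, a mitochondrial glycine carrier, fell by 0.43 (limma adjusted p = 0.040). Of 17 genes of mitochondrial iron and iron-sulfur clusters, 6 fell, 1 rose and 10 were not called with the diet, where 20.1% of all genes fell and 21.0% rose. In SZ-A against HFD mice 6 rose, 0 fell and 11 were not called, where 9.47% of all genes rose and 13.3% fell. Cisd1, an iron-sulfur protein of the outer mitochondrial membrane, had log2 fold changes of -1.60 and 0.79 (limma adjusted p of 1.7e-05 and 0.0043). It remained below NC in SZ-A mice, by -0.81 (limma adjusted p = 0.024). Fdx1, a ferredoxin, fell by 1.09 with the diet (limma adjusted p = 0.0042), and Glrx5, which passes on iron-sulfur clusters, rose by 0.80 in SZ-A mice (limma adjusted p = 0.0069).

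Iron sensing and regulation had 1 rise and 3 falls among 14 genes with the diet, where 21.0% of all genes rose and 20.1% fell. For SZ-A against HFD there were 0 limma calls among the 14, where 22.8% of all genes were called, and 3 had an unadjusted p under 0.05. Hfe, which binds the transferrin receptors, rose by 1.55 and Aco1, which encodes iron regulatory protein 1, a binder of the hairpins shown above, fell by 0.70 (limma adjusted p of 0.011 and 0.0024). Of 3 genes of export and its hormone, Flvcr1, a heme exporter, rose by 0.98 and Abcg2, a transporter that also exports porphyrins, fell by 2.35 (limma adjusted p of 0.0026 and 0.021). Abcg2 was uneven among NC mice, at 171, 113 and 43.3 FPKM in NC 5, NC 2 and NC 4 and 2.91 to 10.8 FPKM in the others. HFD mice had 3.55 to 4.89 FPKM, all above NC 1, so the fall was not shared by every NC mouse. None of 4 storage and chaperone genes was called by limma in any comparison, and at most 1 had an unadjusted p under 0.05. For HFD against NC this was Lcn2 (-2.91 ± 1.19 SE, limma adjusted p = 0.065). Lcn2 stood at 2431 FPKM in NC 6 and 2.92 to 31.8 FPKM in the other NC mice. It was 1.03 to 2.95 FPKM in HFD mice and 272 FPKM in SZ-A 2, the highest SZ-A mouse. For SZ-A against HFD it was Ncoa4 (-0.66, limma adjusted p = 0.11).

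**Figure D5:**
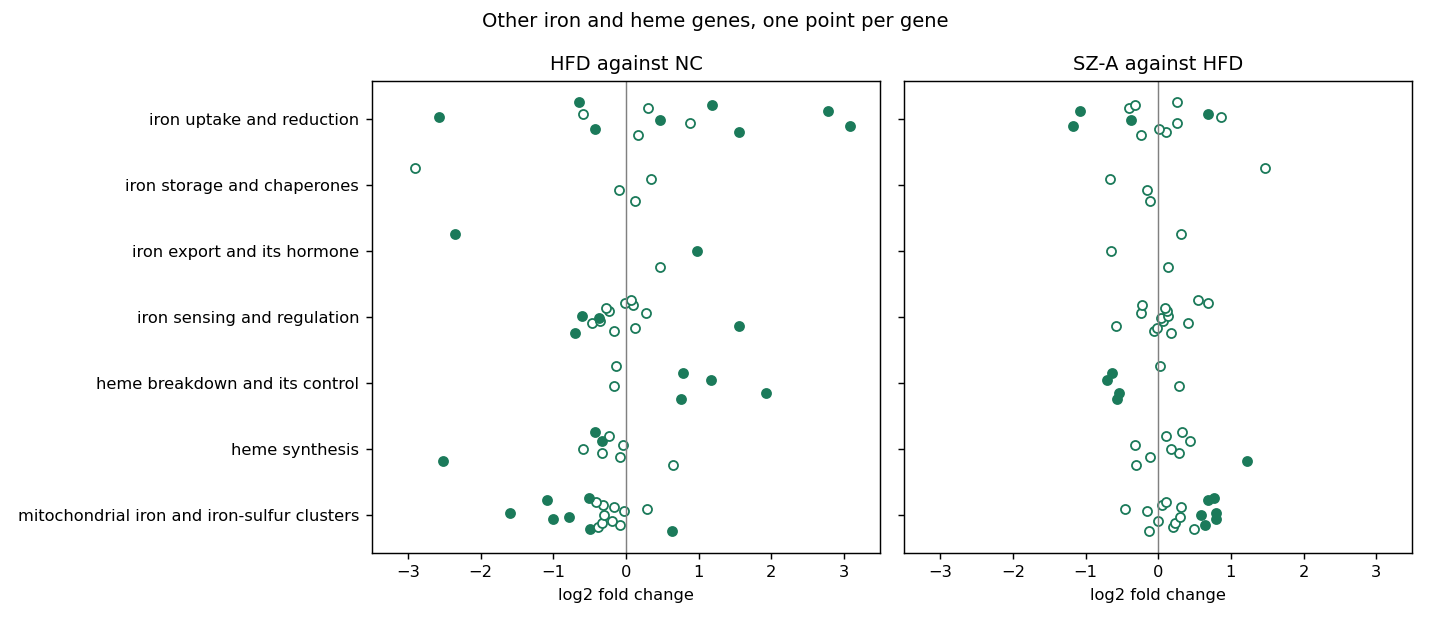
Log2 fold changes of 65 other iron and heme genes on the log2(FPKM + 1) scale, each gene a point, in 7 lists, for HFD against NC and SZ-A against HFD. Filled points have a limma adjusted p under 0.05. In mitochondrial iron and iron-sulfur clusters 6 of 17 genes fell with the diet (20.1% of all genes) and 6 of 17 rose in SZ-A against HFD mice (9.47% of all genes).

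The genes most like each of the 10 across mice were sought among genes whose mean reached 1 FPKM, by Pearson's r of group-centred log2(FPKM + 1) over 20 mice. Slc11a1 was most like Gpr137b (0.98), Fcgr3 (0.98) and Laptm5 (0.97). Hmox1 was most like Ninj1, Plaur and Zdhhc18 (0.94 each), and Ninj1 was also nearest to Blvrb (0.94), followed by Arl6ip5 (0.93) and Ttc12 (0.91). Hmox1 and Blvrb themselves had an r of 0.84. The ferritins had different neighbours, Panx1 (0.91), Clec4d (0.90) and Pitpna (0.88) for Fth1 and Rilpl2 (0.96), Pi4k2a (0.94) and Slc35f6 (0.94) for Ftl1, and an r of 0.61 with each other that was 0.83 without NC 6 and SZ-A 5. Trf was nearest to Il15 (0.95), Mill2 (0.95) and Nova1 (0.94), and Hp to Sparc (0.96), Serpina3n (0.95) and Rgs5 (0.95). For Hp these values were 0.75, 0.73 and 0.73 without the 2 mice. The remaining neighbours were Spon1 (0.92), Rbm7 (0.90) and Lmbrd1 (0.85) for Slc40a1, Plaa (0.90), Eif4e (0.87) and Pafah1b2 (0.86) for Tfrc, and Npnt (0.88), Neo1 (0.84) and Stag1 (0.81) for Cp.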

How the data were processed

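Poly(A) RNA of the eWAT of 20 mice was sequenced by the authors as paired-end reads and aligned to GRCm38 with HISAT2. The submitters' processing notes name featureCounts 1.5.0-p3, and the study's methods name DESeq2, which was not used here. The authors deposited FPKM for 14776 genes, each above 0 in every mouse. All 20 columns were used. Whether reads were counted by strand is not given in the sources used here.

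FPKM multiplied by exon length (GENCODE M21, 14770 genes matched) gave whole reads within 0.01 for 95.9% to 96.3% of values below 1000 reads, which served an alternative with voom. Groups were compared pairwise by limma 3.58.1 (R 4.3.3) on log2(FPKM + 1), with lmFit, eBayes with trend, genes whose mean reached 0.1 FPKM and p adjusted by Benjamini-Hochberg over every gene tested. Calls had an adjusted p under 0.05. Fold changes on this scale understate those of low genes. The steps were tested on simulated data. Single-gene permutation tests were exact and two-sided. The labels give no batch or date and do not say whether mice of a group shared cages or litters.

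The 10 genes and the lists were chosen with earlier results of these data known. Named were the 10 genes, every globin in the table, in each other iron, heme or red cell list the 2 called genes with the largest change per comparison, and the 3 genes most like each of the 10. Hmox2, Por, Hpx, Ank1, Sptb, Adgrg2, Krt18, Krt19, Lrrn4, Cd163, Lyve1, Lcn2 and Ncoa4 were named after their values were seen. Alternatives were a pseudocount of 0.1, other filters (none, or a mean of 1 FPKM or more), median-ratio scaling, quantile normalization, all 3 groups in the fit, voom, a size limit of 1.5, the replicate number as a block, and each mouse left out. Leaving out NC 6 with SZ-A 5, the alternatives of the globins and the ferritin ratio were added after seeing the data. Python 3.11.15, pandas 2.3.3, NumPy 2.4.6 and matplotlib 3.10.9 were used.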

Additional observations from a re-analysis of the deposited data

Results flagged for a closer look

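Of 45 tests of a group for a mouse far from the others, by Dixon's test on log2(FPKM + 1), 6 were past the 95% limit, where chance gives about 1 in 20. Among SZ-A mice, SZ-A 2 was far above the others in Tfrc (6.94 FPKM, next 4.27) and SZ-A 5 in Trf (150 FPKM, next 33.3). NC 6 was far below the other NC mice in Hp (12.1 FPKM, next 338) and Hbb-bt (0.586 FPKM, next 12.7). Among HFD mice, HFD 1 was far below in Hba-a1 (19.2 FPKM, next 96.1) and Hbb-bs (29.6 FPKM, next 114).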

How the results depend on the processing

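With the limit of 1.5 on the log2 fold change, called genes were 3 of the 10 and 9 of the 65 other iron and heme genes for HFD against NC, 0 and 0 for SZ-A against HFD, and 2 of the 65 for SZ-A against NC. With all 3 groups in the fit, 4 of the 10 and 9 of the 65 were called for SZ-A against NC. Ftl1 and Cp were the members added, and Hp passed for HFD against NC in that fit (limma adjusted p = 0.034). Leaving out a mouse gave 5 to 8, 2 to 4 and 2 to 3 of the 10 genes, 24 to 32, 13 to 20 and 3 to 7 of the 65 (3 without SZ-A 6), and 0 to 4, 4 to 4 and 0 to 0 globins in the 3 comparisons. The 4 globins for HFD against NC were called without NC 6 and 1 was called without HFD 2. For all genes, the limit of 1.5 gave 1172, 127 and 263 calls in place of 6047, 3349 and 678, and all 3 groups in the fit gave 2088 for SZ-A against HFD and 1527 for SZ-A against NC. Voom moved the median of all genes to -0.147 for HFD against NC.

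Replicate numbers did not pair the mice, with correlations of same-numbered mice from -0.415 to 0.593. With the replicate block, 1 of the 10 and 0 of the 65 were called for SZ-A against NC, all-gene calls were 4424, 2619 and 167, and Fth1 for HFD against NC, Hmox1 for SZ-A against NC and Hba-a2 for SZ-A against HFD lost their calls (limma adjusted p of 0.094, 0.089 and 0.061).

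Of the fold changes of the 10 genes, 237 of 250 kept their direction and side of the threshold over the alternatives and 369 of 400 over left-out mice. The fold changes of the 10 genes and the globins that changed sign were uncalled. For SZ-A against HFD, Hp was 0.001 with median-ratio scaling, 0.038 with voom and between -0.20 and 0.16 with a mouse left out, and Cp was between -0.066 (without SZ-A 2) and 0.248. For SZ-A against NC, Tfrc was -0.012 with quantile normalization, -0.02 with voom and between -0.067 and 0.098 with a mouse left out, Slc40a1 between -0.084 and 0.22 and Hba-a2 between -0.146 and 0.748 (both lowest without NC 6), and Trf between -0.343 and 0.471 (-0.343 without NC 6, -0.241 without SZ-A 5). Without both mice, Trf was -0.735, Hba-a2 -0.366 and Hbb-bt -0.012. Blvrb for SZ-A against HFD also missed with all 3 groups in the fit (limma adjusted p = 0.060), as did Hba-a2 (limma adjusted p = 0.051). The cause of these changes was not tested. Depth was at least 37 reads for each of the 10 genes.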
